A study of Mus musculus with 41 samples.

Results

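The 9 genes described here are the paracrine fibroblast growth factors Fgf1, Fgf2, Fgf7, Fgf9 and Fgf18 and the receptors Fgfr1, Fgfr2, Fgfr3 and Fgfrl1, chosen by gene symbol from the 43346 genes of a count table. All 9 were among the 19292 genes that passed the filter on low counts. RNA-seq had been run on the tibia of 41 female p16-INK-ATTAC mice on a C57BL/6 background. This transgene places a drug-inducible caspase under the p16-Ink4a promoter, so that the dimerizer AP20187 (AP) removes cells in which that promoter is active, and every group carried it. The groups were 12 young mice, given at 6 to 12 months of age in the sample records and also recorded as vehicle-treated, 13 old + vehicle-treated mice and 16 old + AP-treated mice. Old mice started treatment at 20 months and received vehicle or 10 mg/kg AP 2 times per week for 4 months. The bones had been centrifuged to remove marrow, and each library came from 1 mouse.

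Fibroblast growth factors bind receptor tyrosine kinases together with heparan sulfate chains on the cell surface, and the bound receptor signals through the adaptor Frs2 to the MAP kinase and PI3 kinase cascades. Fgfr1 and Fgfr2 act in osteoblast-lineage cells, Fgfr3 restrains growth of cartilage, and Fgfrl1 binds ligand but lacks the kinase domain. Fgf2, Fgf9 and Fgf18 are known from bone and cartilage growth, and Fgf7 is a stromal ligand of the epithelial form of Fgfr2. Fgf1, Fgf2 and Fgf7 also belong to the senescence gene list that the study assembled.

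Fgf2 and Fgf9 were higher and Fgfr2 was lower in old + vehicle-treated than in young tibiae, and Fgf9, Fgfr2 and Fgfr3 differed in the same directions between old + AP-treated and young mice. None of the 9 passed the test between old mice given AP and old mice given vehicle. A gene was called changed when its Benjamini-Hochberg adjusted p over all genes tested, from the quasi-likelihood test of edgeR, was under 0.05 and its log2 fold change was over 0.5 in size. By this rule 3 of the 9 members were called between old + vehicle-treated and young mice, against 9.06% of all genes tested. Between old + AP-treated and young mice it was also 3 of 9, against 8.54% of all genes. Between the old groups it was 0 of 9 by edgeR, against 0.0726% of all genes, and 0 of 9 by DESeq2. An unadjusted p under 0.05 was found for 1 of the 9, against 4614 of 19292 over all genes.

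The promoter windows of the members that were called are shown first, because these members split into a pair that rose and a pair that fell. Each is the 250 bases before a RefSeq start site on GRCm38.p6, written 5′ to 3′ on the strand of the gene, with matches to GGGCGG, the core of the GC box, in capitals on either strand. They lie at chr3:37348403-37348652 on the plus strand for Fgf2, chr14:58072436-58072685 on the plus strand for Fgf9, chr7:130266809-130267058 on the minus strand for Fgfr2 and chr5:33721474-33721723 on the plus strand for Fgfr3. The start sites of the Fgf2, Fgf9 and Fgfr2 windows lie inside the longer models of the count table, whose 5′ ends are at 37312519, 58070547 and 133123350, and that of Fgfr3 is the start of its model.
Fgf2: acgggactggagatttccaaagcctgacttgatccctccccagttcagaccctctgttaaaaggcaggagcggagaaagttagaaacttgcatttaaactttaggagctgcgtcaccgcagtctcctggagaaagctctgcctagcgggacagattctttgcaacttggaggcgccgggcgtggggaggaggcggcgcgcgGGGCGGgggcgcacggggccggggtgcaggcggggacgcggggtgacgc
Fgf9: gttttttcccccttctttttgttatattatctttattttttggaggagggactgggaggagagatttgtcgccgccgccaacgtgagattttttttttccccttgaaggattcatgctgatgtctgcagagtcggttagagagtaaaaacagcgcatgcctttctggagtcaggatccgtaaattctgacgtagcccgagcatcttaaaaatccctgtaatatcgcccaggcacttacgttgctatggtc
Fgfr2: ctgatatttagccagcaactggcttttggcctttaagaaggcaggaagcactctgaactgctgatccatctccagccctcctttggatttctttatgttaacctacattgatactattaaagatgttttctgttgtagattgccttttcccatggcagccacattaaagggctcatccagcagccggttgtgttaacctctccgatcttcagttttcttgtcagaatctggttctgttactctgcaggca
Fgfr3: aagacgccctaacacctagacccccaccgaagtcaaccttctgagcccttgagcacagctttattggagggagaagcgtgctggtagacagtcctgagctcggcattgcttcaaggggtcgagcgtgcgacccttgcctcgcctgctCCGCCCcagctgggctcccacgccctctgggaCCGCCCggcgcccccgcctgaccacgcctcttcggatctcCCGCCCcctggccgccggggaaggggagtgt
The Fgf2 window held 1 GC box match, the Fgfr3 window 3, and the windows of Fgf9 and Fgfr2 none, while a second RefSeq window of Fgfr3, not printed, held 2, and 32.7% of all 32851 windows of this length held at least 1. Bases G and C made up 62.4% of the Fgf2 window, 44.8% of the Fgf9 window, 44.0% of the Fgfr2 window and 66.8% of the Fgfr3 window, with a median of 52.4% over all windows. No match to TGTGGT, the core bound by RUNX factors, to TATAAA or to TGANTCA, the AP-1 site, was found on either strand in these 4 windows. Those letters occurred in 14%, 12.4% and 6.75% of all windows. The pair that rose and the pair that fell each held a window with GC box matches and a window without.

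Library totals ran from 37028959 to 75942717 counts with a median of 47774880, and replicates differed by far more than counting noise. Cdkn2a, the gene whose promoter drives the transgene, had a median of 0.587 CPM (counts scaled to the effective library size) in young, 2.20 in old + vehicle-treated and 1.10 in old + AP-treated mice, with overlapping ranges. Old + AP-treated mice 19 and 18 and old + vehicle-treated mouse 16 correlated least with their own groups. With these 3 libraries removed, the same number of members, 3, 3 and 0, was called in the 3 comparisons. Osteoblast markers, led by the collagen genes Col1a2 and Col1a1, were abundant in every group, and no marker on the 14 cell type lists was at 0 in every mouse. Skeletal muscle transcripts such as Atp2a1 and Acta1 and marrow transcripts such as S100a9 and Hbb-bs were also present in every group. In whole tissue, fewer cells of a type and less RNA per cell cannot be told apart.

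Fgfr1 was the most abundant member. In RPKM, which is CPM divided by the gene model length in kilobases and is the scale used here to compare genes, its median level over 41 mice was 38.7. It was followed by Fgfr2 at 16.04, Fgf1 at 13.4, Fgfrl1 at 7.91, Fgfr3 at 6.54 and Fgf7 at 5.12. Fgf9 at 0.996, Fgf2 at 0.927 and Fgf18 at 0.554 were the scarce members. Fgfr1 exceeded Fgfr2, and Fgf7 exceeded Fgf9, in 41 of 41 mice. Other neighbours in this order crossed more often: Fgfr2 lay above Fgf1 in 26 mice, Fgfrl1 above Fgfr3 in 27 and Fgf9 above Fgf2 in 22. The order depends on the gene models. That of Fgf2 spans 1801 exonic bases in the table but 6782 in GENCODE M21. The same counts divided by the longer length give a median RPKM of 0.246, below Fgf18. Divided by M21 lengths, Fgf1 at 11.4 and Fgfr2 at 11.2 also change places. Reads were not counted again on the M21 models, so the levels under those models are not known.

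Fgf2, a heparin-binding mitogen that acts on osteoblast precursors, rose with age in vehicle-treated mice from a low level. It is annotated at chr3:37312519-37405377 on GRCm38. Young mice ranged from 0.543 to 2.26 CPM with a median of 1.07. Old + vehicle-treated mice ranged from 0.802 to 3.46 with a median of 2.08, and old + AP-treated mice from 0.959 to 2.90 with a median of 1.68. The groups overlapped, but 5 of 13 old + vehicle-treated mice lay above every young mouse and 12 of 13 above the median young mouse. Fgf2 was 1.68-fold higher in old + vehicle-treated mice (log2 fold change 0.75, SE 0.22, adjusted p = 0.0135). It did not pass the test between old + AP-treated and young mice (log2 fold change 0.56, SE 0.21, adjusted p = 0.0593), where 15 of 16 mice exceeded the median of young mice. Between the old groups the log2 difference was -0.19 with a 95% confidence interval from -0.60 to 0.22. The counts behind these values were 31 to 188 per mouse. Its exons overlap those of Nudt6 on the opposite strand over 640 bases, and Nudt6 itself had a log2 fold change of 0.06 with age (adjusted p = 0.853). They also overlap Gm43439 on the same strand over 255 bases, and no level was obtained for that gene.

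Fgf9, a ligand of Fgfr3 and Fgfr2 with roles in skeletal growth, was higher in both old groups. The gene lies at chr14:58070547-58112337. Young mice spanned 1.73 to 4.55 CPM with a median of 2.80, old + vehicle-treated mice 2.23 to 9.01 with a median of 4.62, and old + AP-treated mice 1.01 to 9.40 with a median of 5.01. The highest old mice reached well above the young range: 7 of 13 given vehicle and 9 of 16 given AP exceeded every young mouse. The log2 fold change over young was 0.78 (SE 0.23, adjusted p = 0.0132) with vehicle and 0.76 (SE 0.22, adjusted p = 0.0142) with AP. Between the old groups it was -0.02, with an interval from -0.45 to 0.40.

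Skeletal muscle transcripts were among those that varied with these ligands. Summed over 12 markers, they had a median of 49697 CPM in young, 80710 in old + vehicle-treated and 56592 in old + AP-treated mice, with 2 of 12 markers called higher with age. Across 41 mice, after removing group means, log2 levels correlated with the muscle sum at r = 0.68 for Fgf2 and r = 0.60 for Fgf9 (0.61 and 0.43 without the 2 most distant mice), as a description of libraries that share depth and composition. Fgf2 varied as closely, in the opposite direction, with the erythroid sum (r = -0.65) and the macrophage sum (r = -0.67). Over 41 mice Fgf9 was closer than to muscle to the smooth muscle and pericyte sum (r = 0.74) and the osteocyte sum (r = 0.71). Without the 2 most distant mice these were 0.57 and 0.48. Their group medians were 692, 621 and 625 CPM and 1508, 1563 and 1626 CPM. In young mice alone Fgf9 had r = 0.71 with the muscle, 0.68 with the smooth muscle and 0.19 with the osteocyte sum. In the vehicle group these were 0.22, 0.41 and 0.42, and in the AP group 0.78, 0.87 and 0.87. Between the old groups, where the muscle median was lower with AP, the Fgf2 median was 2.08 CPM with vehicle and 1.68 with AP and that of Fgf9 was 4.62 and 5.01. With the muscle sum as a covariate the log2 differences of AP over vehicle were 0.08 for Fgf2 and 0.10 for Fgf9. With that covariate both ligands were still called in old + vehicle-treated against young mice, at smaller log2 fold changes. Fgf2 went from 0.75 to 0.58 (adjusted p = 0.0113) and Fgf9 from 0.78 to 0.65 (adjusted p = 0.0146). Fgf2 was then also called in old + AP-treated against young mice (log2 fold change 0.66, adjusted p = 0.00276).

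Fgf1, the most abundant of the 5 ligands, is a broad activator of all receptor forms and lies at chr18:38838673-38929404. Its CPM ran from 30.3 to 92.6 in young mice with a median of 51.8, from 32.2 to 89.6 in old + vehicle-treated mice with a median of 67.6, while the AP group ran from 19.8 to 93.9 with a median of 64.6. The ranges lay almost on top of each other, although 12 of 13 old + vehicle-treated mice stood over the median young mouse. With age the log2 fold change was 0.38 (SE 0.19, adjusted p = 0.153), and that of AP over vehicle was -0.14 (SE 0.17, adjusted p = 0.630). Fgf1 followed Fgf9 closely from mouse to mouse (r = 0.90 over 41 mice after removing group means, 0.84 without the 2 most distant mice), and it followed the muscle sum at r = 0.75.

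Fgf7, at chr2:126034658-126091185, had medians of 19.1, 17.1 and 15.4 CPM in the young, vehicle and AP groups, within ranges of 12.5 to 21.6, 10.4 to 24.5 and 8.24 to 20.6. Its log2 fold changes were -0.14 (adjusted p = 0.507) with age, -0.33 (adjusted p = 0.0627) in old + AP-treated against young mice and -0.19 (adjusted p = 0.339) between the old groups. Fgf7 correlated with the smooth muscle and pericyte markers at r = 0.85. Fgf18, which promotes bone formation and cartilage repair and lies at chr11:33117430-33147400, was the scarcest member, with medians of 0.588, 0.599 and 0.677 CPM. Counts of 10 to 74 per mouse stood behind it, and its log2 fold changes of -0.01, 0.11 and 0.10 had intervals within -0.47 to 0.54.

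**Figure D1:**
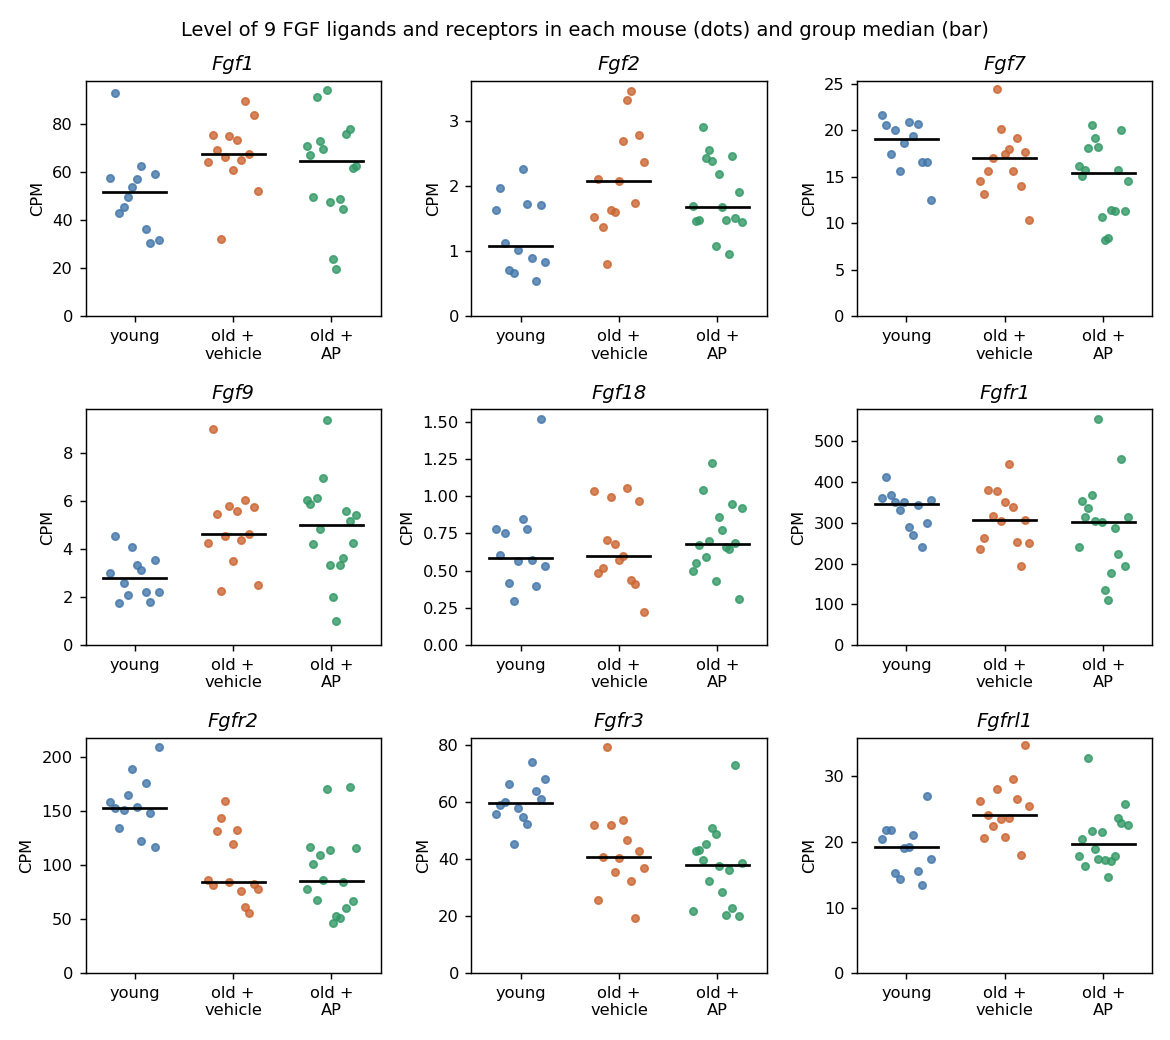
Level of each FGF ligand and receptor in CPM (vertical axis, from 0) for every mouse (dots) in the young, old + vehicle and old + AP groups, with the group median as a bar. The Fgf2 and Fgf9 medians rise from 1.07 to 2.08 and from 2.80 to 4.62 CPM between young and old + vehicle, the Fgfr2 median falls from 153 to 84.7, and the groups overlap in every panel.

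Fgfr2, the receptor kinase whose activating mutations fuse the skull sutures, fell furthest among the 9 genes. Its CPM ranged from 117 to 210 in young mice with a median of 153. It ranged from 56.2 to 159 in old + vehicle-treated mice with a median of 84.7, while the AP group spanned 47.1 to 172 with a median of 85.1. Of the old mice, 8 of 13 given vehicle and 14 of 16 given AP lay below every young mouse, while the others stayed within the young range. The log2 fold change over young was -0.65 (SE 0.18, adjusted p = 0.0101) with vehicle and -0.75 (SE 0.17, adjusted p = 0.00269) with AP. Levels in the old groups differed by -0.09 on the log2 scale, with an interval from -0.44 to 0.25. The table annotates Fgfr2 at chr7:130162451-133123350. This model shares 314 exonic bases with Ctbp2, which had a log2 fold change of 0.05 with age (adjusted p = 0.550).

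Fgfr3, at chr5:33721724-33737068, was lower in old + AP-treated than in young mice. Its CPM ranged from 45.2 to 74.0 in young mice with a median of 59.5, from 19.4 to 79.5 in old + vehicle-treated mice with a median of 40.96 while the AP group spanned 20.2 to 72.9 with a median of 38.1. Among old mice, 8 of 13 given vehicle and 13 of 16 given AP lay below the young range, and 1 given vehicle lay above it. The log2 fold change was -0.67 in old + AP-treated against young mice (SE 0.16, adjusted p = 0.00394). In old + vehicle-treated against young mice it was -0.48 (SE 0.17, adjusted p = 0.0450), short of the fold threshold. Leaving out mouse 7 of the vehicle group, the one with the highest Fgfr3 level, moved the log2 fold change to -0.59, which passed both thresholds; this was so in 5 of the 25 fits without 1 mouse. The log2 difference between the old groups was -0.19 with an interval from -0.52 to 0.13. Exons of Fgfr3 overlap the unclassified gene G630022F23Rik on the opposite strand over 998 bases.

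Fgfr1, the main receptor of osteoblast-lineage cells, at chr8:25513654-25575714, showed no called difference. Its CPM ran from 241 to 412 with a median of 347 in young mice, from 194 to 444 with a median of 308 in old + vehicle-treated mice, and with AP from 110 to 556 with a median of 303. Its spread was widest in the AP group, with an SD of 115 CPM against 47.7 in young mice. The log2 fold changes were -0.10 (adjusted p = 0.736) with age, -0.08 (adjusted p = 0.768) with AP and -0.18 (adjusted p = 0.460) in old + AP-treated against young mice.

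The makeup of the kinase receptors is given as a description, with ranges that overlap between groups. Of the summed RPKM of Fgfr1, Fgfr2 and Fgfr3, Fgfr1 made up a median of 57.8% in young, 67.6% in old + vehicle-treated and 67.0% in old + AP-treated mice. Fgfr2 made up 30.4%, 22.9% and 23.7%, and Fgfr3 12.1%, 9.91% and 9.58%. The ratio of Fgfr1 to Fgfr2 was 1.45 to 2.44 in young mice with a median of 1.87. It was 1.97 to 3.97 with a median of 2.88 in old + vehicle-treated mice and 1.85 to 4.41 with a median of 2.77 in old + AP-treated mice. These shares restate the levels on a scale that library size does not affect and were given no test.

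**Figure D2:**
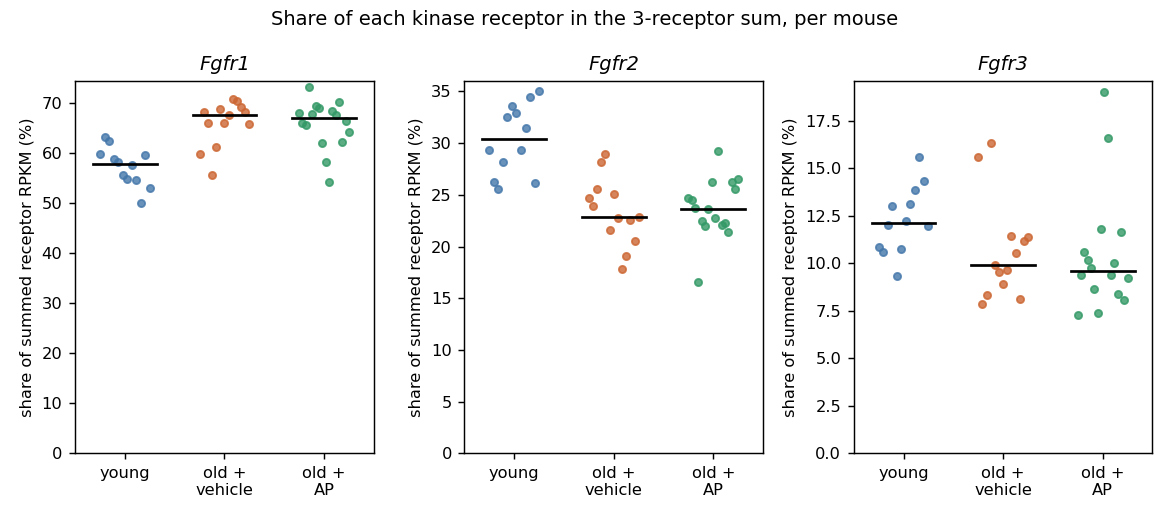
Share of Fgfr1, Fgfr2 and Fgfr3 in their summed RPKM (vertical axis, percent, from 0) for every mouse (dots), with the group median as a bar. The Fgfr2 median falls from 30.4% in young to 22.9% in old + vehicle mice while the Fgfr1 median goes from 57.8% to 67.6%, and the old + AP median of Fgfr2 is 23.7%.

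Several abundant markers of osteoblasts, cartilage and periosteal tissue were lower in the old groups, as Fgfr2 was. The summed osteoblast markers had a median of 68961 CPM in young mice (35476 to 89538), 40903 in old + vehicle-treated mice (15857 to 79684) and 32055 in old + AP-treated mice (6878 to 69996). Of the 10 osteoblast markers, 3 were called lower with age in vehicle-treated mice and 7 in old + AP-treated against young mice. Of all genes tested, 4.75% and 4.83% were called lower in these comparisons. The 3 called in vehicle-treated mice were Bglap and Bglap2, which encode osteocalcin, and the bone sialoprotein gene Ibsp. The chondrocyte sum, led by Col11a1 and Col2a1, had a median of 4041 CPM in young mice (2139 to 6200), 1437 in old + vehicle-treated mice (652 to 2786) and 1459 in old + AP-treated mice (304 to 2612). In each age comparison 3 of 11 tested chondrocyte markers, Col2a1, Col9a1 and Col11a1, were called lower. The list as a whole went different ways: its median log2 fold change over young was -0.85 with vehicle, with 2 of 11 positive, and 0.57 with AP, with 8 of 11 positive and none of them called. The tendon and periosteal fibroblast sum, led by Postn, had a median of 1333 CPM in young mice (745 to 1587), 438 in old + vehicle-treated mice (257 to 1182) and 409 in the AP group (202 to 737), with Postn, Aspn and Mkx called lower of 7 in each age comparison. The marrow stromal sum, led by Cxcl12, had a median of 2040 CPM in young mice (1222 to 2514), 1304 in old + vehicle-treated mice (694 to 2012) and 1239 in the AP group (1009 to 1775), with 3 of 6 markers called lower with vehicle and 2 of 6 with AP. Blood cell markers fell as well. With vehicle 3 of 8 erythroid and 5 of 8 B cell markers were called lower than in young mice, and with AP 2 of 8 and 1 of 8.

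After removing group means, Fgfr1, Fgfr2 and Fgfr3 correlated with the osteoblast sum at r = 0.83, 0.84 and 0.76 over 41 mice, and Fgfr3 with the chondrocyte sum at r = 0.72. Within the young group alone these were 0.87, 0.51, 0.34 and 0.33. Other marker sums varied with the receptors too. Fgfr1, Fgfr2 and Fgfr3 had r = 0.68, 0.67 and 0.76 with the tendon and periosteal sum, for which no covariate fit was made. The same holds for the marrow stromal sum, with which Fgfr2 had r = 0.59. With the osteoclast sum, whose group medians were 3711, 3709 and 3313 CPM, Fgfr2 and Fgfr3 had r = 0.71 and 0.72. The relations differed by group. With the tendon and periosteal sum Fgfr1, Fgfr2 and Fgfr3 had r = -0.01, -0.41 and 0.14 in young mice. They had 0.59, 0.63 and 0.85 in the vehicle group and 0.87, 0.90 and 0.79 in the AP group. In young mice Fgfr2 and Fgfr3 had 0.11 and 0.39 with the osteoclast sum, while Fgfr2 had 0.76 with the marrow stromal sum. Fgfr1 had r = 0.88 with the osteocyte sum, and with that sum as a covariate the calls of Fgfr2 and Fgfr3 stood. With the osteoblast sum as a covariate, an alternative chosen after seeing the data, the log2 fold change of Fgfr2 was -0.36 in old + vehicle-treated mice (adjusted p = 0.0134) and -0.23 in old + AP-treated mice (adjusted p = 0.215). Neither then passed both thresholds, and Fgfr3 in old + AP-treated against young mice was also lost (log2 fold change -0.23, adjusted p = 0.274). With the chondrocyte sum as a covariate, no member was called in any comparison. The Fgfr2 log2 fold changes were then -0.11 (adjusted p = 0.721) and -0.10 (adjusted p = 0.733), that of Fgfr3 with age was 0.08 (adjusted p = 0.778), and those of Fgf2 and Fgf9 in old + vehicle-treated mice were 0.48 (adjusted p = 0.281) and 0.68 (adjusted p = 0.132). The chondrocyte sum, carried by Col11a1 and Col2a1, itself separates most young from most old mice, so age and this covariate can scarcely be told apart.

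**Figure D3:**
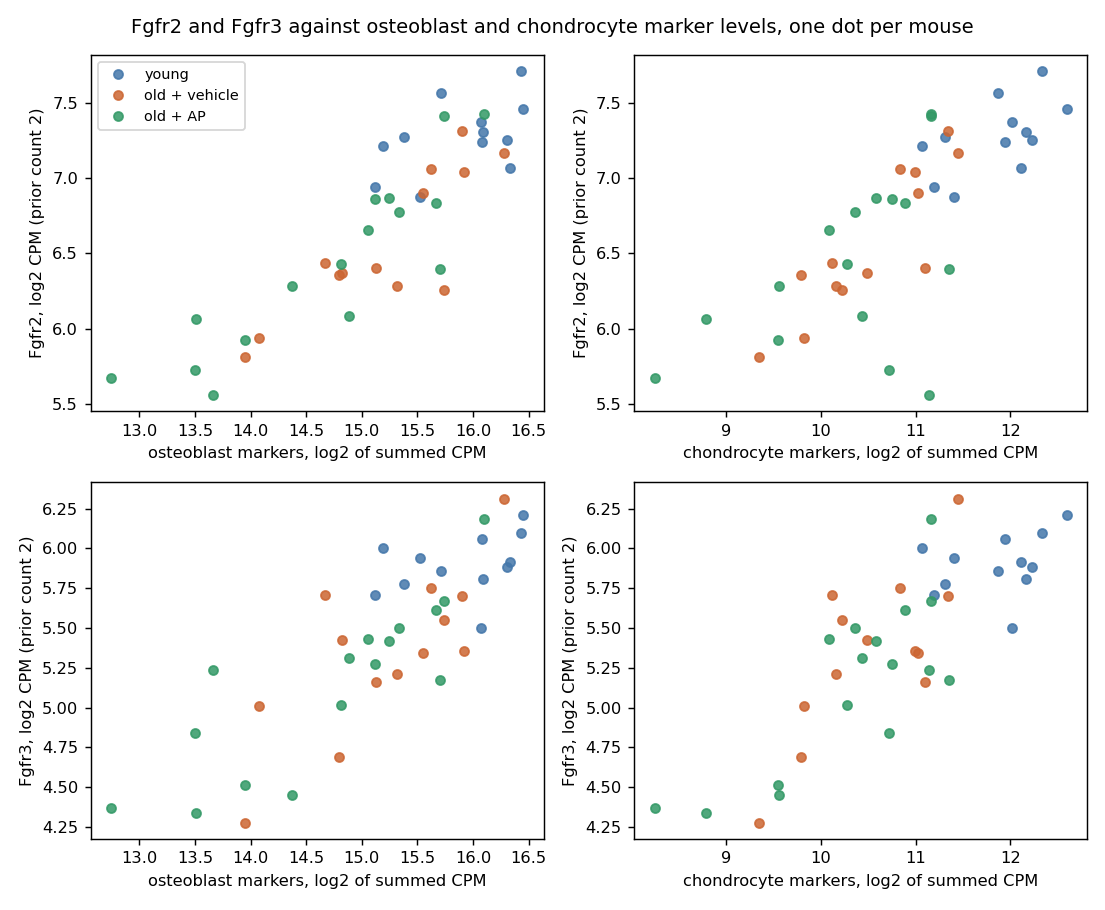
Log2 CPM of Fgfr2 (top) and Fgfr3 (bottom) against the log2 summed CPM of osteoblast markers (left) and chondrocyte markers (right), with 1 dot per mouse coloured by group. Receptor levels rise with both marker sums inside each old group, and most young mice lie toward the upper right of each panel.

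Fgfrl1, the receptor without a kinase domain, at chr5:108694229-108706950, was the member with the smallest p between the old groups. Its CPM ran from 13.4 to 26.9 with a median of 19.2 in young mice, from 18.004 to 34.7 with a median of 23.98 in old + vehicle-treated mice and with AP from 14.6 to 32.7 with a median of 19.6. The old + vehicle-treated mice stood highest: 12 of 13 exceeded the young median, and in the AP group 14 of 16 fell short of the vehicle median. The log2 fold change with age was 0.40 (SE 0.11, adjusted p = 0.00974), under the fold threshold. That of AP over vehicle was -0.28 (SE 0.10, unadjusted p = 0.0110, adjusted p = 0.110). Old + AP-treated and young mice differed by 0.12 (adjusted p = 0.448). Fgfrl1 correlated with the muscle sum at r = 0.66 and with neutrophil markers at r = -0.74, and marker sums served as covariates. With the muscle sum the log2 fold change of AP over vehicle was -0.18 (adjusted p = 0.245) and that with age was 0.31 (adjusted p = 0.00674). With the sum of marrow markers they were -0.23 (adjusted p = 0.0809) and 0.34 (adjusted p = 0.00303). With the chondrocyte sum they were -0.28 (adjusted p = 0.0965) and 0.37 (adjusted p = 0.0830), so neither passed the test.

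**Figure D4:**
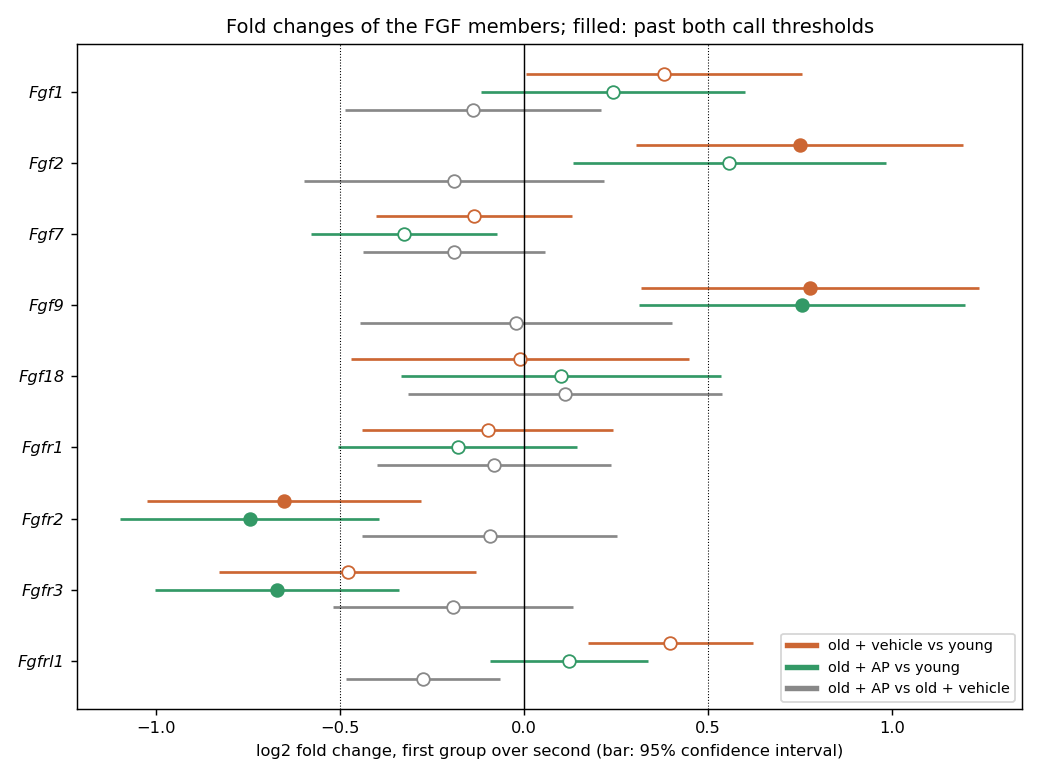
Log2 fold change (horizontal axis) with its 95% confidence interval for each member in the 3 comparisons, with dotted lines at -0.5 and 0.5. Filled points pass both thresholds: Fgf2, Fgf9 and Fgfr2 for old + vehicle over young and Fgf9, Fgfr2 and Fgfr3 for old + AP over young, while no point for old + AP over old + vehicle is filled.

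From mouse to mouse the 3 kinase receptors varied together, and so did Fgf1 and Fgf9. Over 41 mice, after removing group means, Fgfr1 correlated with Fgfr2 at r = 0.82, Fgfr2 with Fgfr3 at r = 0.71 and Fgfr1 with Fgfr3 at r = 0.60, while Fgf1 and Fgf9 shared r = 0.90. Fgfrl1 stood apart from the kinase receptors, with r = 0.29 for Fgfr1, -0.01 for Fgfr2 and 0.17 for Fgfr3. Fgf7 had r = 0.67 with Fgf1, 0.63 with Fgf9 and 0.68 with Fgfr1, and these were highest in the AP group (0.88, 0.84 and 0.82). They were 0.22, 0.21 and 0.52 in the vehicle group and 0.53, 0.45 and 0.12 in young mice. Fgf2 had r = 0.53 with Fgf1. Within the young group alone the correlations among Fgfr1, Fgfr2 and Fgfr3 were weaker, at 0.39, 0.25 and 0.12. Each r describes libraries that share depth and tissue composition. Of 15533 other genes with a mean of at least 1 CPM, Kirrel was most like Fgfr2 (r = 0.95), Cpt1c most like Fgfr3 (r = 0.91) and the protocadherin gene PCDHGB6 was second most like Fgfr1 (r = 0.97) after a gene listed under a clone name (r = 0.98). Jam2 was most like Fgf9 (r = 0.91), Efr3b most like Fgf1 (r = 0.90), Kremen1 most like Fgfrl1 (r = 0.88), Apbb2 most like Fgf7 (r = 0.85), Sema3c most like Fgf2 (r = 0.84) and Lrrn4cl most like Fgf18 (r = 0.77). Tgfb2, which encodes transforming growth factor beta 2, stood among the closest 3 genes of both Fgf1 (r = 0.89) and Fgf9 (r = 0.90).

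Of 107 other genes of FGF signalling on 8 lists, 88 were tested. Between old + vehicle-treated and young mice 7 were called higher and 7 lower, 15.9% against 9.06% of all genes. The median log2 fold change over the 88 was 0.07, against 0.01 over all genes. Fgf10, the mesenchymal relative of Fgf7, was the only other ligand called (log2 fold change 1.02, SE 0.33, adjusted p = 0.0254). It rested on a median of 11 counts in young and 19 in old + vehicle-treated mice. Fgf23, the osteocyte hormone of phosphate balance, had means of 3.58 and 6.92 CPM in these groups (adjusted p = 0.114).

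Genes of the heparan sulfate chains on which FGF binding depends changed in both directions. Sulf2, an extracellular enzyme that trims 6-O-sulfates from these chains, rose by 0.65 on the log2 scale (SE 0.08, adjusted p = 4.88e-07), from a mean of 31.3 to 49.0 CPM. Its relative Sulf1 fell by 0.60 (SE 0.14, adjusted p = 0.00269), from 49.5 to 32.7 CPM. Among the other chain enzymes, Extl1 rose by 1.08 (adjusted p = 0.00896) and Ndst3, a sulfotransferase, fell by 1.33 (adjusted p = 0.000410). Ndst3 rested on a median of 24 counts in young and 9 in old + vehicle-treated mice. Of the chain enzymes 4 of 19 were called, against 9.06% of all genes. Of 13 proteoglycans and FGF-binding proteins, only the glypicans Gpc2 (log2 fold change -0.64, adjusted p = 2.05e-05) and Gpc6 (log2 fold change -0.51, adjusted p = 0.0135) were called.

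Among 5 other receptors and co-receptors, the membrane proteins Flrt2 and Flrt3, which bind FGF receptors, both fell. Flrt3 went from a mean of 4.88 to 2.16 CPM (log2 fold change -1.18, SE 0.18, adjusted p = 1.75e-05) and Flrt2 from 42.1 to 25.6 (log2 fold change -0.72, SE 0.15, adjusted p = 0.000789). None of 22 signal transducers was called by edgeR. An unadjusted p under 0.05 was found for 10 of them, against 6127 of 19292 over all genes. The abundant Ptpn11, which encodes the phosphatase Shp2, had a log2 fold change of 0.05 (adjusted p = 0.633). Of 10 feedback inhibitors 1 was called, Spry4, at 0.52 (SE 0.13, adjusted p = 0.00450). Of 7 target transcription factor and cell cycle genes, Egr1 rose from a mean of 31.02 to 53.3 CPM (log2 fold change 0.78, SE 0.20, adjusted p = 0.00495). Fosl1 rose by 2.96 (SE 0.62, adjusted p = 0.000693), a value that old + vehicle-treated mouse 16 set in large part with 147 of 260 counts. Without it the log2 fold change was 1.87 (adjusted p = 0.00593). Young mice had only 1 to 7 Fosl1 counts each. In the phosphate list the osteocyte genes Mepe and Phex parted, at 0.85 (SE 0.27, adjusted p = 0.0208) and -0.82 (SE 0.24, adjusted p = 0.0119).

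AP against vehicle in old mice gave no call among the 88 genes by edgeR, with 20 at an unadjusted p under 0.05, against 4614 of 19292 over all genes, and their median log2 fold change was -0.07, against 0.00 over all genes. Fgf13 and Fgf11, the highest of the other ligands, had log2 differences of -0.33 (adjusted p = 0.334) and -0.09 (adjusted p = 0.591). Hspg2, which encodes perlecan, and Gpc1 had -0.45 (adjusted p = 0.0993) and -0.34 (adjusted p = 0.119). The feedback inhibitors Spred1 and Dusp6 had 0.02 (adjusted p = 0.932) and -0.07 (adjusted p = 0.679). Between old + AP-treated and young mice, which share their young mice with the vehicle comparison, 3 of the 88 were called higher and 8 lower, 12.5% against 8.54% of all genes. Those higher were Fgf10 (0.94), Fosl1 (2.33) and Mepe (0.76). Those lower included Flrt3 (-1.004), Flrt2 (-0.69), Ndst3 (-0.87), Sulf1 (-0.60), Gpc6 (-0.62), Gpc2 (-0.51) and Phex (-0.74), together with the syndecan gene Sdc2 (-0.54, adjusted p = 0.0227).

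**Figure D5:**
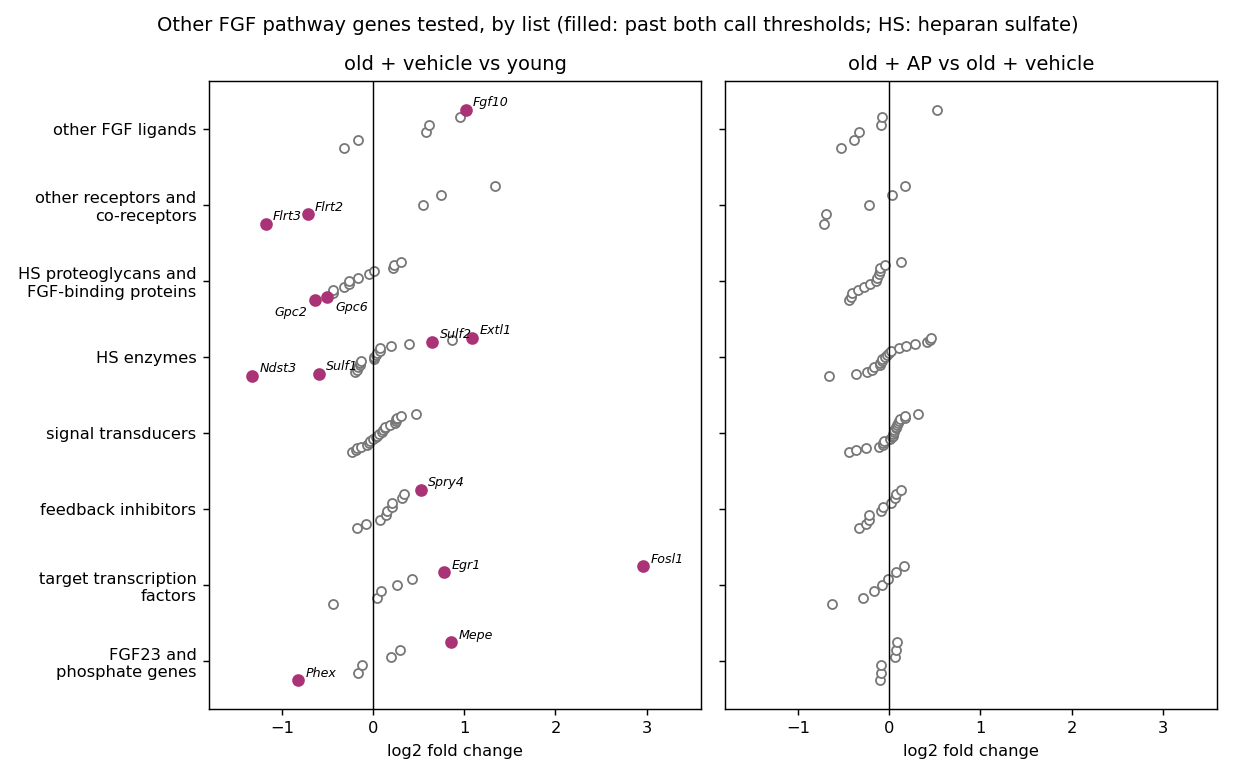
Log2 fold change (horizontal axis) of each tested FGF pathway gene outside the 9 members, by list, for old + vehicle over young (left) and old + AP over old + vehicle (right). Filled, named points pass both thresholds: 14 genes on the left, from Ndst3 at -1.33 to Fosl1 at 2.96, and none on the right.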

How the data were processed

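RNA-seq of tibia from 41 mice was analysed in 3 groups taken from the sample records. The deposited table holds raw counts per gene, which the authors made with TopHat2 2.0.6 and HTSeq on GRCm38 per the labels. The annotation release and the strand setting are not given in the sources used here, so reads of genes that overlap on opposite strands may not be separable, and gene counts do not resolve receptor isoforms. The labels name the molecule as genomic DNA, whereas the methods of the study describe mRNA sequencing. The age of the young mice is 6 months in those methods and 6 to 12 months in the labels. The 37 mitochondrial genes are at 0 in all libraries. Depth was 37028959 to 75942717 counts per library.

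Counts were filtered with filterByExpr, scaled by TMM and fitted in 1 model of the 3 groups with the quasi-likelihood test of edgeR 4.0.16 in R 4.3.3, with Benjamini-Hochberg adjustment over 19292 genes and a log2 fold change threshold of 0.5. SEs were derived from the F statistic. The log2 levels behind correlations used a prior count of 2. DESeq2 1.42.0, other scalings, no filter, marker covariates and leaving out single mice were alternatives. The calling procedure was also run on simulated counts, and no outcome of that run is given here. Replicate numbers are not shared between groups and no batch is recorded. P-values measure the spread between mice.

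All 9 members are named. Of each pathway list up to 3 called genes per direction are named, or up to 2 of the highest level where none was called. For likeness, up to 3 genes per member were taken by Pearson r. The naming of Fgf23 and of the Fosl1 library was chosen after their values were seen. The members and lists were chosen with earlier results of these data known. Of the 107 listed pathway genes 105 were matched by symbol, and 1 marker gene was matched by identifier. Promoter windows came from RefSeq (GRCm38.p6) and exon overlaps from GENCODE M21, where 33497 of 42462 shared identifiers have the start and end given in the table.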

Additional observations from a re-analysis of the deposited data

How the results depend on the processing

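No paired analysis was possible because the groups share no replicate numbers. The calls of Fgf2, Fgf9 and Fgfr2 with age in vehicle-treated mice, and of Fgf9, Fgfr2 and Fgfr3 in AP-treated against young mice, held under DESeq2 size factors, library totals, no filter, fits of 2 groups, DESeq2, the muscle, marrow and osteocyte covariates, without the 3 libraries that stand apart and in every fit without 1 mouse. They were lost under the chondrocyte covariate (0 members called in either age comparison, 976 genes with vehicle) and in part under the osteoblast covariate, with 2 members called with vehicle and 1 with AP (812 genes); the cause was not tested. By adjusted p alone, 5 members and 3730 genes differed with age in vehicle-treated mice, adding Fgfr3 and Fgfrl1, and 3 members and 3419 genes in AP-treated against young mice.

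No member was called between the old groups under any alternative. The 14 genes called there in all became 316 with library totals, 3 without a filter, 0 in a fit of 2 groups, 1 with the muscle, 67 with the chondrocyte, 126 with the marrow and 0 with the osteoblast covariate, 0 without the 3 libraries, 33 by adjusted p alone and 216 with DESeq2. Without single mice the count ran from 0 (without old + vehicle-treated mouse 6) to 403 (without old + AP-treated mouse 9). Library totals moved the median log2 fold change of all genes from -0.0037 to 0.0988 in that comparison, and the split with age in vehicle-treated mice from 830 higher and 917 lower to 651 and 1123; in AP-treated against young mice it went from 716 and 932 to 767 and 777.

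Some values changed sign; each was uncalled with all mice and no covariate, and Fgfr3 with age in vehicle-treated mice (-0.48, adjusted p = 0.0450) was the furthest from 0 among them. For AP against vehicle these were Fgf9 at 0.0624 and Fgfr1 at 0.0052 with library totals, Fgf1 at 0.0186, Fgf2 at 0.0789 and Fgf9 at 0.0966 with the muscle covariate, and Fgfr2 at 0.0124 with the chondrocyte covariate. With the osteoblast covariate they were Fgf9 at 0.0006, Fgfr1 at 0.0926, Fgfr2 at 0.1317 and Fgfr3 at 0.0041, and without the 3 libraries Fgf9 at 0.1033 and Fgfr1 at 0.0402. With age in vehicle-treated mice the chondrocyte covariate gave Fgf18 0.1621, Fgfr1 0.3573 and Fgfr3 0.0826, and the osteoblast covariate Fgf18 0.0141 and Fgfr1 0.2094. In AP-treated against young mice Fgfr1 was at 0.3416 and 0.3020 with these covariates. Leaving out single mice moved Fgf18 with age between -0.0831 and 0.1648 and Fgf9 for AP against vehicle between -0.1164 and 0.0826. Fgf2 in AP-treated against young mice was called in 4 of 28 such fits, and with library totals, the muscle and marrow covariates and DESeq2. Fgfr3 with vehicle was called with library totals and the marrow covariate.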
